A study of Mus musculus with 8 samples.

Results

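Small nucleolar RNAs (snoRNAs) and small Cajal body RNAs (scaRNAs) were followed in spleen cells of wild-type mice, of Sle1.3 mice and of Sle1.3 mice haplodeficient for the transcription factor E2-2. The members are all probe sets of the deposited array table whose annotated symbols all begin with Snora, Snord or Scarna followed by a digit, and transcripts that host such RNAs were not included. They number 62 of the 35556 probe sets on the table and stand for 56 genes. Of the 62, 23 measured box H/ACA snoRNAs (20 genes), 35 measured box C/D snoRNAs (33 genes) and 4 measured Cajal body RNAs (3 genes). Another 39 probe sets carried one of these symbols together with a symbol of another kind and were left out by the rule. A mean level above the 25th percentile of the table was required for testing, and 59 of the 62 passed; both Snord58b probe sets and Snord38a did not.

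SnoRNAs are short non-coding RNAs of the nucleolus that act as guides within protein particles. Box C/D RNAs pair with ribosomal RNA and direct 2'-O-methylation by fibrillarin, and box H/ACA RNAs direct the conversion of uridine to pseudouridine by dyskerin. Several, among them U8 (Snord118), U14 (Snord14e), U22 (Snord22) and U17 (Snora73a and Snora73b), are needed for the cutting of the ribosomal RNA precursor. ScaRNAs carry the same boxes, reside in Cajal bodies and guide the modification of spliceosomal RNAs. Most mammalian snoRNAs are not transcribed alone: they are trimmed out of introns of host genes, many of which encode ribosomal proteins or translation factors or make long non-coding RNAs.

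The cells were total splenocytes from collagenase and DNase I digestion, and each mouse was measured on 1 Affymetrix array designed for whole transcripts. WT mice (2) were on the C57/B6 background and were labelled male. Sle1.3 mice (3) were described as lupus mice on the same background and were labelled female, female and male in order of replicate number. Sle1.3/E2-2het mice (3, hereafter het) carried Sle1.3 and were haplodeficient for E2-2, which is encoded by Tcf4 and needed by plasmacytoid dendritic cells, and they were labelled male, male and female. The series title describes the plasmacytoid dendritic cells of the het mice as non-functional. Ages, and whether the RNA preparation retained all short RNAs, are not given in the sources used here. With 1 array per mouse, differences between mice cannot be told apart from differences in RNA or array handling. P-values measure both together, with each probe set's spread drawn by limma toward that of the other probe sets.

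The arrays fell into 2 sets by their lowest deposited intensity, which was 4.57 to 5.11 on 6 arrays and 10.9 and 11.2 on the others, Sle1.3 replicate 3 and het replicate 3. This split comes from the values, not from a label, and there was no WT array in the second set. The array set was therefore a term in the model. Tcf4 measured 9.02 and 8.80 log2 in WT, 8.67, 8.63 and 9.06 in Sle1.3, and 8.18, 8.13 and 9.25 in the arrays labelled het, so the array labelled het replicate 3 went against its label; which part of the gene was deleted is not given. Xist, which is made from the inactive X chromosome, was 10.68 to 11.90 in all 3 Sle1.3 arrays, one of them labelled male, 3.75 and 4.11 in WT, and 3.79, 4.29 and 11.82 in het. Sle1.3 against WT is therefore also female against male, as is Sle1.3 against het in the first set, and genotype and sex cannot be told apart there. Neutrophil precursor markers rose in Sle1.3 against WT (11 of 11, median log2 difference 3.16), as did markers of dividing cells (8 of 8, median 1.46). In a mixed spleen, fewer cells of a type and less RNA per cell cannot be told apart, and the part of cell composition in the results was not tested.

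By position in the RefSeq annotation, 55 of the 56 genes lie within the span of another gene, and Snord118 is the 1 that does not. Of these genes, 21 lie in ribosomal protein genes, 17 in long non-coding RNA genes and 20 in other coding genes, some in more than 1 kind. There were 47 such hosts, and 11 of them hold a pair of members. The sequences that follow are the start sites of 5 hosts of members described in the results, shown because host transcription supplies the snoRNA. Each run is the gene strand, 50 bases before and 50 after the annotated start (RefSeq, GRCm38.p6), with capitals marking CTTTC, a short pyrimidine run, where it lies within 20 bases before to 30 after the start. Snhg12 (chr4:132308628-132308727, plus strand) hosts Snora44 and Snora16a, Rpl13a (chr7:45128696-45128795, minus strand) hosts Snord33 and Snord35a, and Rack1 (chr11:48800310-48800409, plus strand) hosts Snord95 and Snord96a. Ncl (chr1:86359406-86359505, minus strand) hosts Snora75 and Snord82, and Eef2 (chr10:81176581-81176680, plus strand) hosts Snord37.
Snhg12: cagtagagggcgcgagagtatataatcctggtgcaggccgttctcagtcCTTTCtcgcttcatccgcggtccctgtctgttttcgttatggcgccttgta
Rpl13a: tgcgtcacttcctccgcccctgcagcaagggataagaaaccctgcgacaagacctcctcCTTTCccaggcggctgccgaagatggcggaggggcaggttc
Rack1: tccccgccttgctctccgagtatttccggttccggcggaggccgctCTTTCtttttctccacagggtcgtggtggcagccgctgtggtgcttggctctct
Ncl: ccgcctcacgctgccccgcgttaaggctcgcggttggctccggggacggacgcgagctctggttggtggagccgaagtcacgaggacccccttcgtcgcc
Eef2: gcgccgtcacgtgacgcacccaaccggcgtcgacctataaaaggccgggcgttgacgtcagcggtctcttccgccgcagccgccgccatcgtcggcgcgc
CTTTC was found on the gene strand in the first 3 and not in Ncl or Eef2. The letters were chosen after the sequences were seen. Of the 34 hosts with a promoter entry, 10 (29.4%) held CTTTC on the gene strand and 1 (2.94%) on the opposite strand, against 6.46% and 6.12% of 27025 gene promoters. By kind of host the gene strand match was found in 5 of 11 ribosomal protein genes, 3 of 9 long non-coding RNA genes and 2 of 14 other coding genes. A match describes these letters only.

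The spread between arrays of 1 genotype enters the precision of every comparison. Within the 6 arrays of the first set, the median within-genotype SD was 0.58 log2 for H/ACA members (23), 0.48 for C/D members (32) and 0.20 for Cajal body members (4). It was 0.17 over all 26667 probe sets tested, 0.20 over 130 microRNA precursors and 0.32 over 10 other short RNAs such as vault, Y and 7SK RNA. These other short RNAs also include Terc, Rmrp, Rpph1 and Rnu3a, and Rnu3a belongs to box C/D by function. The SD pools the genotypes, whose steps from replicate 1 to replicate 2 differed in size. Over H/ACA members the median step was 1.25 in het, 0.34 in WT and 0.24 in Sle1.3. Over C/D members it was 0.90, 0.37 and 0.18. Among the members the smallest SD was that of Scarna17 (0.0951) and the largest that of Snord15b (1.22). Snord15b, a guide RNA from an intron of Rps3, measured 8.63 and 9.69 in WT, 8.18, 9.69 and 10.00 in Sle1.3, and 8.61, 10.97 and 10.74 in het. All 3 genotypes overlapped, and in each the replicate 1 array was the lowest.

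**Figure D1:**
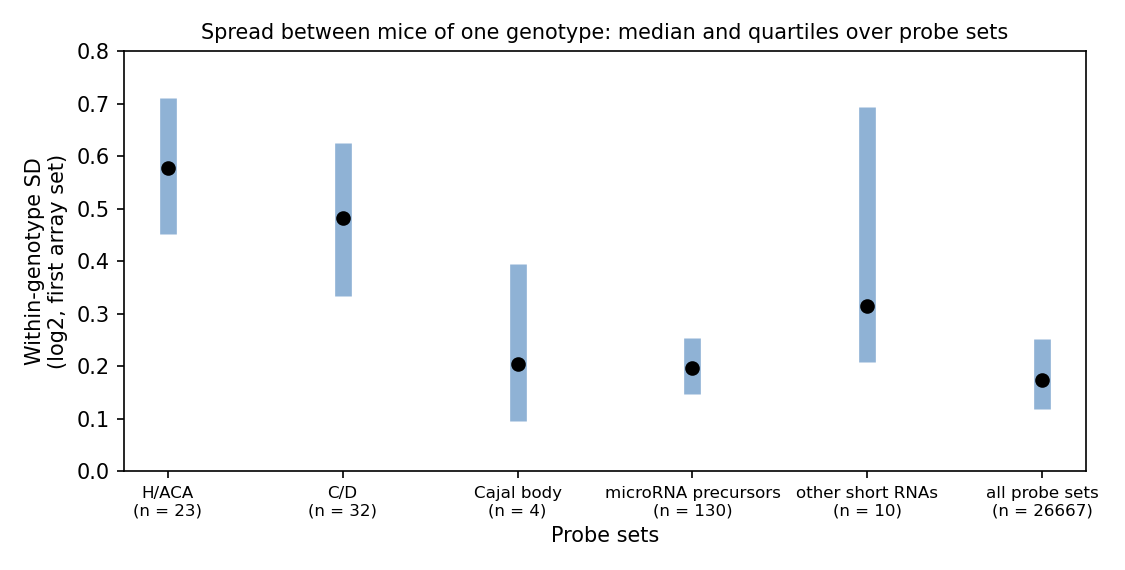
Within-genotype SD of log2 intensity (vertical axis), pooled over genotypes in the 6 arrays of the first set, for each kind of probe set (horizontal axis). Points are medians over probe sets and bars run from the lower to the upper quartile; the H/ACA median of 0.58 and the C/D median of 0.48 lie above the 0.17 of all probe sets.

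The median level of the members differed from array to array. Relative to each probe set's own mean over the 8 arrays, the median member stood at -0.29 and 0.10 log2 in the WT arrays, at -0.44, -0.30 and 0.24 in Sle1.3, and at -0.46, 0.52 and 0.64 in het. Het replicate 2 was the highest of the 6 first-set arrays for 43 of 59 members, including 23 of 23 H/ACA members and 18 of 32 C/D members, whereas it was the highest for 19.1% of all probe sets. Between the first-set het mice, replicate 2 was above replicate 1 by a median of 0.99 over the members (53 of 59 higher), by 1.25 over H/ACA and by 0.90 over C/D. The same step was 0.70 over the other short RNAs (10 of 10 higher), 0.03 over microRNA precursors and -0.01 over all probe sets. The 26 tested host genes moved by a median of 0.13 (17 higher). Here and below, each host was read by the probe set with the highest mean among those annotated to that gene alone. Whether that probe set lies at the host locus was not checked. Between the WT mice the members differed by a median of 0.34 (52 of 59 higher in replicate 2), and between the first-set Sle1.3 mice by 0.23 (35 of 59).

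**Figure D2:**
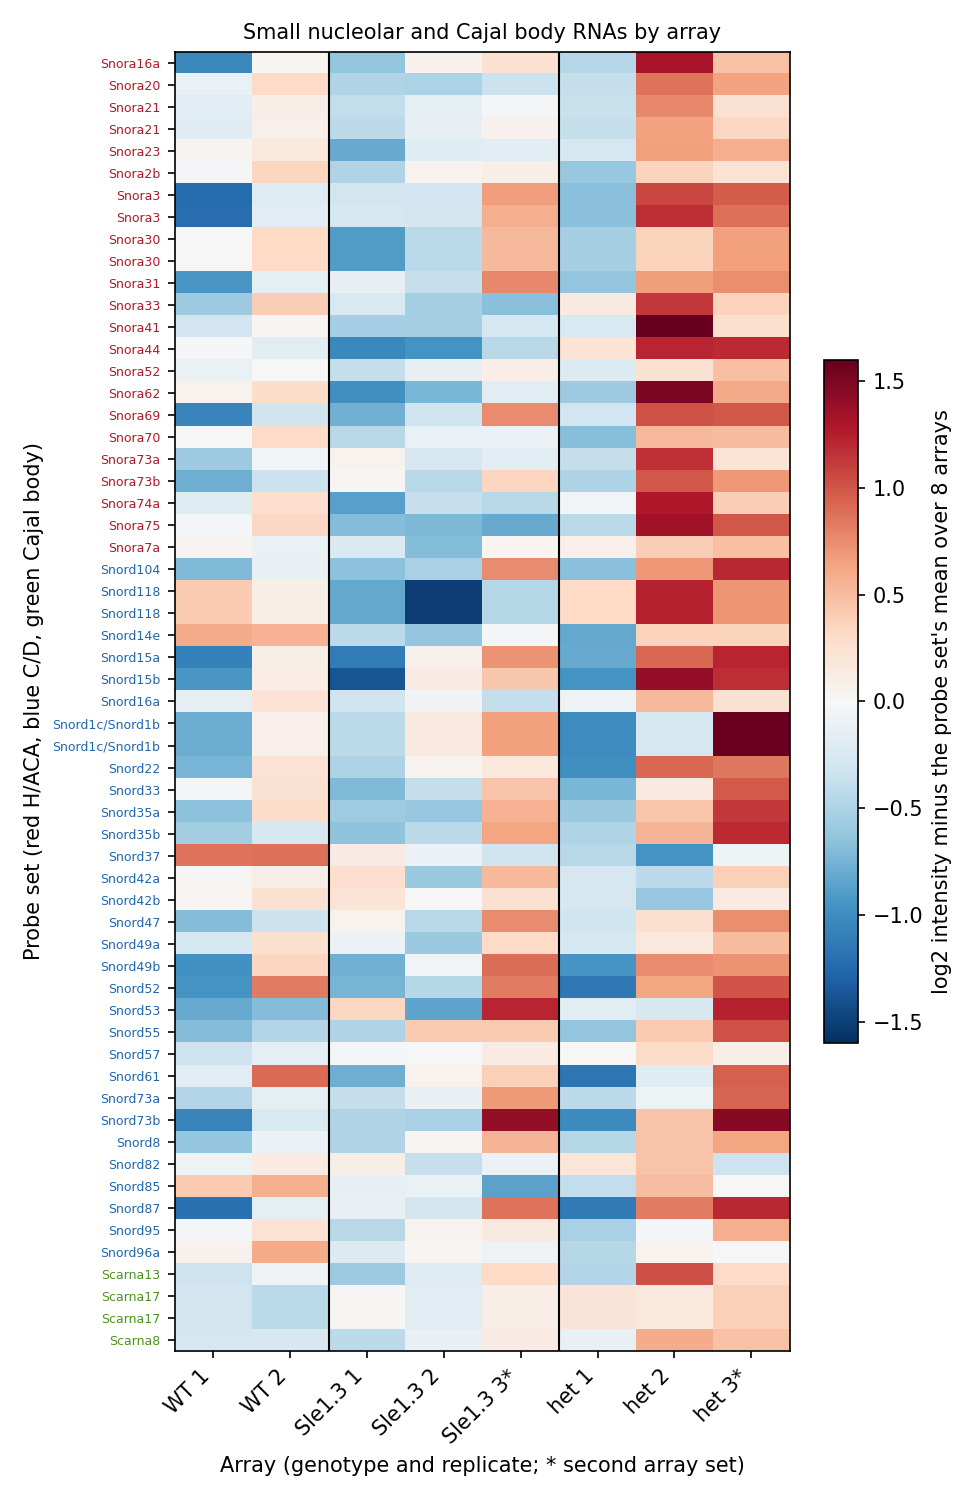
Log2 intensity of the 59 tested members (rows, with H/ACA in red, C/D in blue and Cajal body in green) in the 8 arrays (columns), as colour for the difference from the probe set's own mean; "het" is Sle1.3/E2-2het and * marks the second array set. Colours end at 1.6 either side, which 1 of 472 values passes; het replicate 2 is the reddest first-set column in the H/ACA rows.

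**Figure D3:**
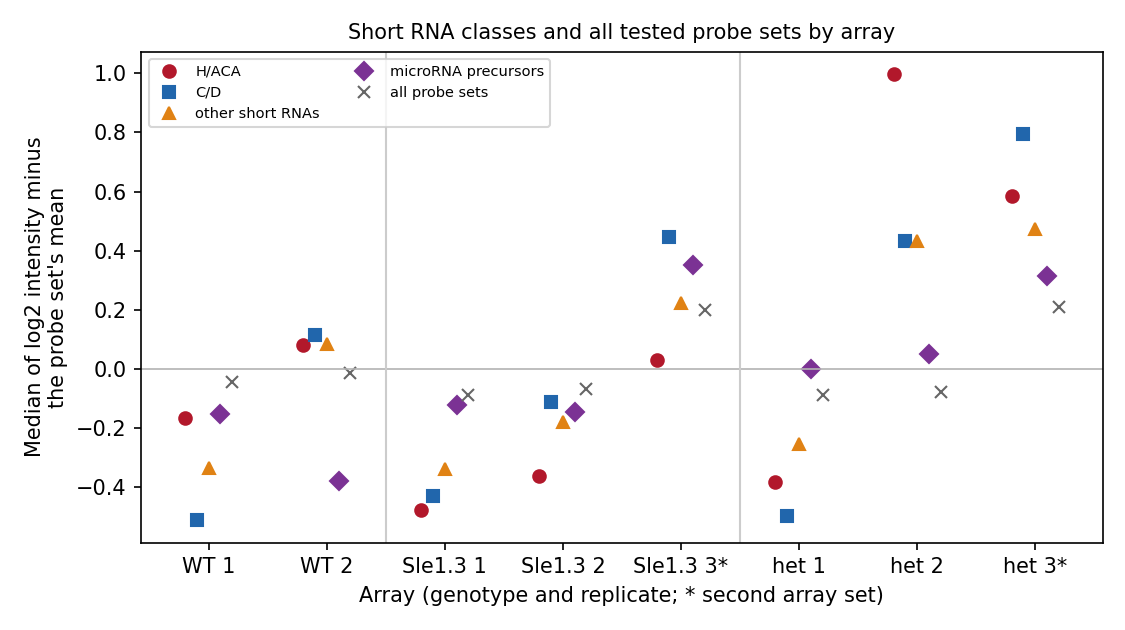
Median deviation of log2 intensity from the probe set's mean (vertical axis) in each array (horizontal axis; "het" is Sle1.3/E2-2het, * the second array set) for H/ACA and C/D members, other short RNAs, microRNA precursors and all tested probe sets. H/ACA members run from -0.48 in Sle1.3 replicate 1 to 1.00 in het replicate 2, while all probe sets stay between -0.09 and 0.21.

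Other measurements differed between the same 3 het arrays. Erythroid markers (6 on the table) averaged 7.90, 7.62 and 7.07 log2 in het replicates 1, 2 and 3, and neutrophil precursor markers (11) averaged 10.34, 8.77 and 9.24. Natural killer cell markers (6) averaged 7.03, 7.39 and 7.77, and markers of dividing cells (8) averaged 8.02, 7.65 and 7.68. Sle1.3 arrays averaged 6.61, 5.69 and 6.45 for the erythroid list and 6.64, 6.87 and 6.63 for the natural killer list. B cell markers (6) averaged 10.23, 10.30 and 10.86 in het and T cell markers (7) averaged 8.19, 8.21 and 8.92. The natural killer, B cell and T cell lists had the order of the members' medians over the het arrays. The core proteins of C/D particles and of H/ACA particles had it too. From het replicate 1 to replicate 2 the B cell average went from 10.23 to 10.30 and the T cell average from 8.19 to 8.21. The natural killer average went from 7.03 to 7.39. The members rose by a median of 0.99 in that step. The erythroid, neutrophil precursor, dividing cell, plasmacytoid dendritic cell, macrophage and platelet lists did not have the order. H/ACA members alone had another order, with medians of -0.38, 1.00 and 0.58 in het replicates 1, 2 and 3. No list named here had that order. The part of these cells in the members' levels was not tested. In both genotypes with a second-set array, that array lay above the mean of the first-set pair, by a median of 0.56 over the members in Sle1.3 and 0.57 in het, against 0.27 and 0.32 over all probe sets.

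The comparison of Sle1.3 with WT asked what the lupus background changes. Over all probe sets limma called 20.1% changed at an adjusted p below 0.05 (8.84% higher, 11.3% lower), and among the 59 members it called 0 higher and 4 lower (6.78%). Before adjustment, p was below 0.05 for 9 members, all of them lower in Sle1.3, and for 0 higher ones, which is 15.3% of the members against 35.5% of all probe sets. With the replicate number as a block, 11 members were called lower. The 4 probe sets are 3 genes: Snord118, Snord14e and Snord37, all of box C/D. The median difference over the members was -0.20, with 41 of 59 below 0, against -0.04 over all probe sets. With no array set term that median was -0.02, with labelled sex in its place -0.0073 and with quantile normalization -0.11. Without WT replicate 2 it was 0.05 and without WT replicate 1 it was -0.45. Neutrophil precursor markers averaged 7.20 and 6.68 in WT and 10.72, 8.89 and 10.66 in Sle1.3, and their part in the members' values was not tested. By class the medians were -0.30 for H/ACA, -0.14 for C/D and 0.16 for Cajal body members. All Sle1.3 arrays lay below all WT arrays for 13 members and above them for 3, where 22.5% and 24.6% of all probe sets did so. With quantile normalization 56.5% of the probe sets called were higher, against 44.0% as deposited, and no member was called.

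Snord118, the U8 RNA, is required for maturation of the large ribosomal subunit RNAs and has a promoter of its own. It was measured by a pair of probe sets (10377429 and 10399428) with identical values, which count as 1 measurement. Its level was 11.17 and 10.85 log2 in WT, 9.93, 9.25 and 10.30 in Sle1.3, and 11.08, 11.99 and 11.47 in het. The Sle1.3 arrays lay below every array of the other genotypes, and het overlapped WT. It fell in Sle1.3 against WT (log2 difference -1.29, SE 0.34, 0.408-fold, limma adjusted p = 0.0344). The call was lost when either WT array, Sle1.3 replicate 1 or Sle1.3 replicate 2 was left out. It was also lost with no array set term (adjusted p = 0.0668), with labelled sex in its place (0.266) and with quantile normalization (0.0608).

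Snord14e, a copy of U14 that lies in Hspa8 and takes part in small subunit RNA processing, was 9.72 and 9.68 in WT, 8.70, 8.50 and 9.09 in Sle1.3, and 8.30, 9.49 and 9.47 in het. No Sle1.3 or het array reached the WT levels, and het replicate 1 was the lowest of all. In Sle1.3 it fell against WT (log2 difference -1.12, SE 0.31, 0.462-fold, limma adjusted p = 0.0404). The call was lost in the 6 first-set arrays alone and when any WT or Sle1.3 array was left out, as well as with no set term, labelled sex or quantile normalization (adjusted p = 0.137, 0.291 and 0.0794). Het against WT was -0.79 (SE 0.31, adjusted p = 0.0936). Its host Hspa8, a constitutive chaperone, differed by -0.30 in each of these comparisons and did not pass.

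Snord37, a guide RNA from an intron of Eef2, was the member that passed in both comparisons with WT. Its level was 7.11 and 7.11 in WT, 6.37, 6.14 and 5.92 in Sle1.3, and 5.79, 5.28 and 6.17 in het. The WT pair lay above all 6 other arrays, and Sle1.3 and het overlapped. It fell in Sle1.3 against WT (log2 difference -1.02, SE 0.26, 0.493-fold, limma adjusted p = 0.0298) and in het against WT (-1.41, SE 0.26, 0.375-fold, limma adjusted p = 0.00857). The first call was lost without either WT array or Sle1.3 replicate 2, with no set term and with quantile normalization (adjusted p = 0.0533 and 0.0753), and the second without WT replicate 2. Both comparisons share the WT arrays, so they are not separate evidence. Het replicate 2, the highest first-set array for 43 members, was the lowest array for Snord37.

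Eef2, the host of Snord37, encodes the elongation factor that moves the ribosome along the messenger RNA. Its level was 12.30 and 12.18 in WT, 11.86, 11.92 and 11.90 in Sle1.3, and 11.85, 11.41 and 11.90 in het, with WT again above every other array. Eef2 fell in het against WT (log2 difference -0.57, limma adjusted p = 0.0415), and the difference of -0.40 in Sle1.3 did not pass (adjusted p = 0.138). Het replicate 2 was the lowest array for Eef2 too.

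**Figure D4:**
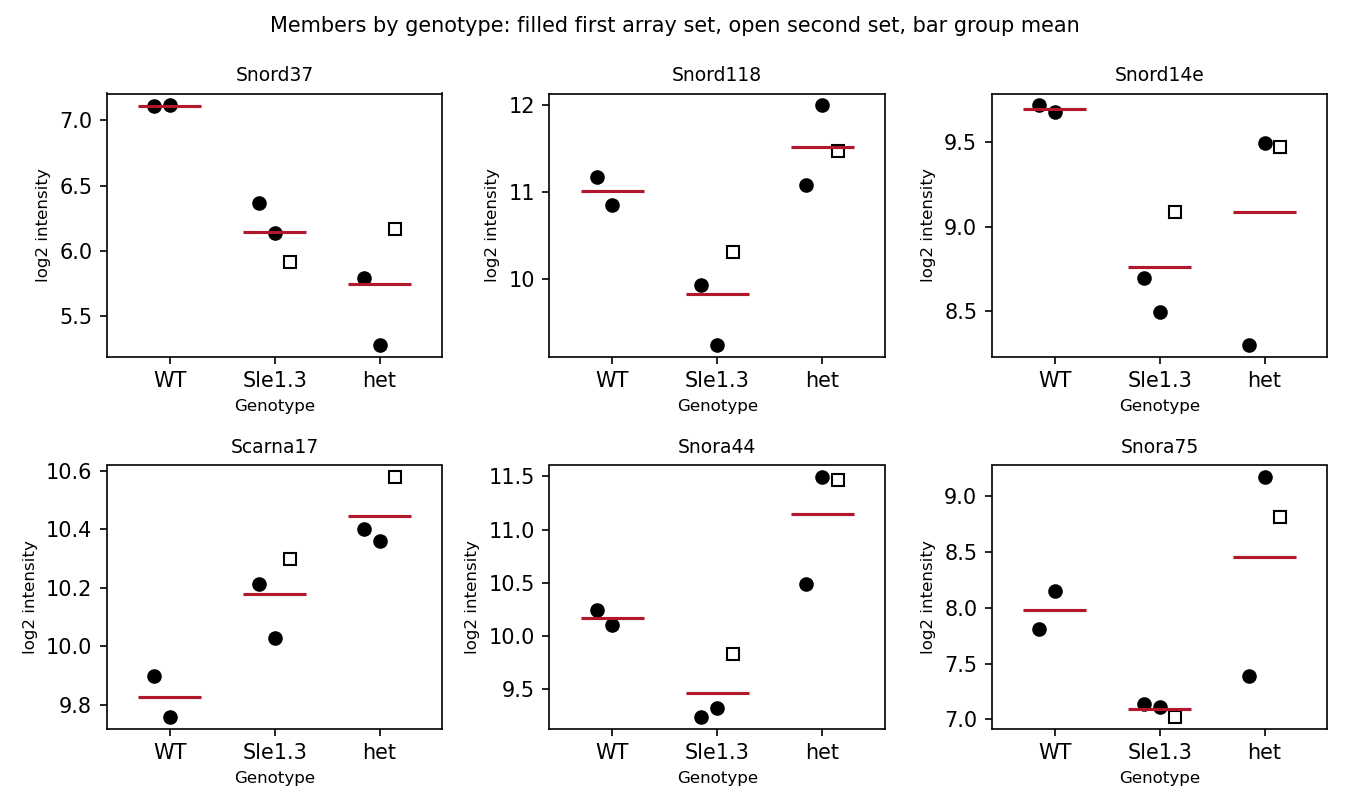
Log2 intensity (vertical axes) of Snord37, Snord118, Snord14e, Scarna17, Snora44 and Snora75 by genotype (horizontal axes; "het" is Sle1.3/E2-2het), 1 point per mouse, filled for the first array set and open for the second, with bars at genotype means. Snord37 sits at 7.11 in both WT mice and between 5.28 and 6.37 in the others, and Snord118 is lowest in the Sle1.3 mice.

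The comparison of het with Sle1.3 asked what loss of 1 E2-2 copy changes on the lupus background. Limma called 0% of the probe sets at an adjusted p below 0.05, and 0 of 59 members. At an unadjusted p below 0.05, 16 members were higher and 1 lower (28.8% of the members). Over all probe sets 1031 were higher and 1422 lower (9.2%). With identical values counted once, 14 members were higher and 1 lower. Without het replicate 2, 9 were higher and 0 lower, and without het replicate 1, 36 were higher and 1 lower. The median difference over the members was 0.36, with 52 of 59 above 0, against 0.02 and 53.8% over all probe sets. H/ACA members had a median of 0.46 and were above 0 in 23 of 23, C/D members 0.17 and 25 of 32, and Cajal body members 0.36 and 4 of 4. No arrays of the genotypes overlapped for 10 member probe sets (8 genes), all of them higher in het, against 3.28% of all probe sets higher and 3.84% lower without overlap.

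The median over all members depended on single het arrays. Without het replicate 2 the median het minus Sle1.3 difference over the members was 0.05, and without het replicate 1 it was 0.68. Set beside the Sle1.3 array of the same number, het replicate 1 differed by a median of -0.01 (29 of 59 higher) and het replicate 2 by 0.85 (53 of 59). Het replicate 3, in the second set, differed by 0.35 (51 of 59). In the first of these pairs H/ACA members had a median of 0.17 (16 of 23 higher) and C/D members -0.18 (9 of 32). No label states this pairing, and the sign for H/ACA depended on it. Against Sle1.3 replicate 2, het replicate 1 stood at -0.08 over H/ACA members (9 of 23) and -0.32 over C/D members (9 of 32). In the second-set pair H/ACA and C/D members stood at 0.38 (22 of 23) and 0.41 (26 of 32). In the first-set arrays alone the fitted median was 0.40 and no member was called, while limma called 141 probe sets of the whole table.

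**Figure D5:**
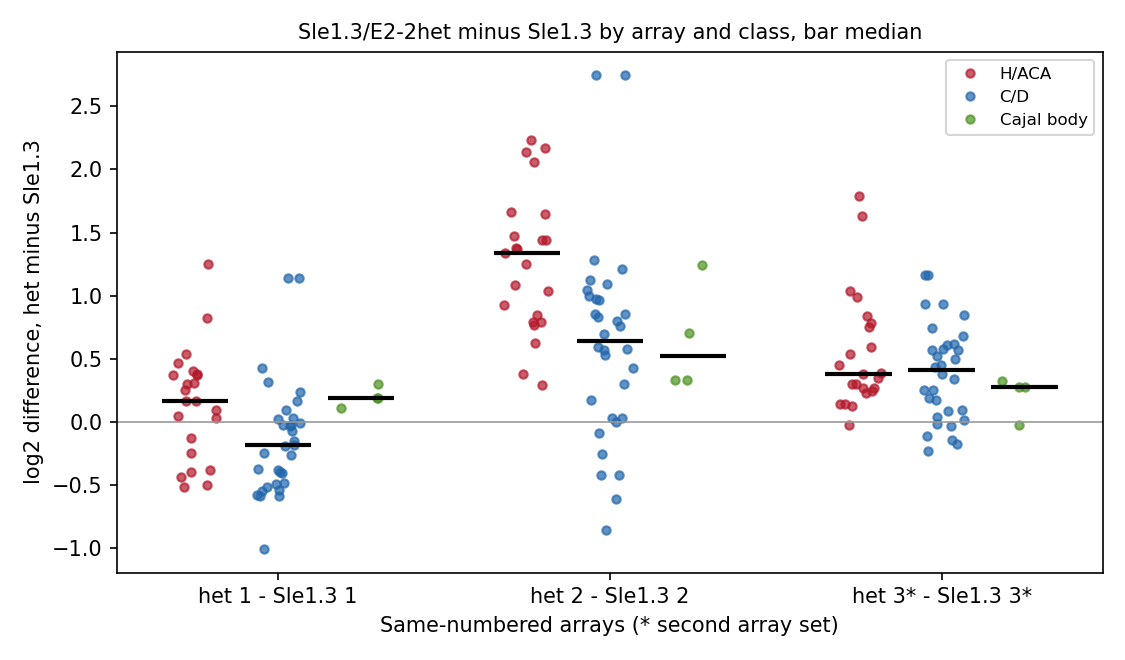
Log2 difference between the het and the Sle1.3 array of the same replicate number (vertical axis) for each tested member, by pair of arrays and class (horizontal axis; "het" is Sle1.3/E2-2het, * the second array set), with bars at class medians. H/ACA medians are 0.17, 1.34 and 0.38 and C/D medians -0.18, 0.64 and 0.41 in pairs 1, 2 and 3.

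Snora44, an H/ACA RNA from the long non-coding RNA Snhg12, had the smallest p of the members in this comparison. Its level was 10.25 and 10.10 in WT, 9.24, 9.32 and 9.83 in Sle1.3, and 10.49, 11.49 and 11.46 in het. The 3 genotypes did not overlap: Sle1.3 was lowest and het highest. Het minus Sle1.3 was 1.68 (SE 0.23, 3.21-fold, limma adjusted p = 0.103), Sle1.3 minus WT was -0.88 (SE 0.27, adjusted p = 0.0540) and het minus WT was 0.80 (SE 0.27, adjusted p = 0.0594). None passed the threshold. Over 19 other settings, some of them the same fit, Snora44 passed in 6 for Sle1.3 against WT and in 3 for het against WT. Among these was the replicate block (limma adjusted p = 0.0396 and 0.0440). In het against Sle1.3 Snora44 passed in 2. Snora16a, from the same host, was 8.69 and 9.75 in WT, 9.09, 9.78 and 9.96 in Sle1.3, and 9.26, 11.03 and 10.19 in het, with all genotypes overlapping and a het minus Sle1.3 difference of 0.55 (SE 0.46).

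Snord118 was next, with a het minus Sle1.3 difference of 1.68 (SE 0.29, limma adjusted p = 0.175). Snora7a, an H/ACA RNA in the ribosomal protein gene Rpl32, was 11.25 and 11.09 in WT, 10.98, 10.52 and 11.23 in Sle1.3, and 11.28, 11.60 and 11.69 in het. The het arrays lay above the others by a narrow margin, and the difference from Sle1.3 was 0.61 (SE 0.16, limma adjusted p = 0.263). When each symbol was represented by 1 probe set, so that 15695 were tested, Snora44 (adjusted p = 0.00328) and Snord118 (adjusted p = 0.0132) passed.

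Snora75 lies in Ncl, the gene of nucleolin, and was 7.81 and 8.15 in WT, 7.14, 7.11 and 7.02 in Sle1.3, and 7.39, 9.17 and 8.82 in het. The Sle1.3 arrays had an SD of 0.0586 and lay below all others, and het replicate 1 lay between them and WT. Het minus Sle1.3 was 1.37 (SE 0.40, limma adjusted p = 0.317). Snord82, a C/D RNA of the same gene, was 11.54 and 11.76 in WT, 11.71, 11.26 and 11.52 in Sle1.3, and 11.81, 12.08 and 11.29 in het, with overlap of all genotypes and a difference of 0.23 (SE 0.19). The host Ncl differed by -0.11 in this comparison, so host and members gave values of opposite sign; the difference between them was not tested.

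Other H/ACA members differed by about 1 log2 or more between het and Sle1.3, each with its highest array in het replicate 2. Snora62, in the laminin receptor gene Rpsa, differed by 1.14 (SE 0.45), with het levels of 6.77, 8.85 and 7.96 and Sle1.3 levels of 6.36, 6.61 and 7.17. Snora74a, the U19 RNA in Snhg4, differed by 1.11 (SE 0.33), and its het levels of 10.19, 11.52 and 10.63 all lay above its Sle1.3 levels of 9.37, 9.87 and 9.79. Snora33, in Rps12, differed by 1.03 (SE 0.30), with het at 9.23, 10.22 and 9.46 and Sle1.3 at 8.85, 8.55 and 8.42. Snora41, in Eef1b2, differed by 0.99 (SE 0.41), with het at 7.07, 8.92 and 7.57 and Sle1.3 at 6.76, 6.78 and 7.03. Limma's adjusted p for these ran from 0.3305 to 0.518. Both U17 RNAs, Snora73a and Snora73b of Snhg3, differed by 0.46 (SE 0.35) and 0.43 (SE 0.35).

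Among C/D members the values went both ways between het and Sle1.3. Snord42b, from Rpl23a, was the 1 member lower at an unadjusted p below 0.05. Its level was 8.35 and 8.56 in WT, 8.53, 8.31 and 8.56 in Sle1.3, and 8.04, 7.70 and 8.45 in het, and the difference was -0.40 (SE 0.16, limma adjusted p = 0.481). Snord42a of the same host differed by -0.17 (SE 0.20). Snord33 and Snord35a of Rpl13a, RNAs studied for their part in metabolic stress, differed by 0.34 (SE 0.23) and 0.53 (SE 0.30). Snord95 and Snord96a of Rack1 differed by 0.09 (SE 0.20) and -0.04 (SE 0.19). Snord22, the U22 RNA of Snhg1, was 6.87 and 7.84 in WT, 7.11, 7.67 and 7.78 in Sle1.3, and 6.63, 8.53 and 8.46 in het, so that het held both its lowest and its highest array and the difference of 0.35 had an SE of 0.47.

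In the comparison of het with WT, which shares its arrays with the other comparisons, limma called 26.8% of all probe sets (11.1% higher, 15.6% lower) and 3 of 59 members (5.08%). These were 2 probe sets higher, both Scarna17 (10459766 and 10461642) with identical values, and Snord37 lower. With the replicate number as a block, 6 members were called higher and 3 lower. The median over the members was 0.31, with 42 of 59 above 0, against -0.04 over all probe sets. Without het replicate 2 it was -0.10, on the other side of 0. With quantile normalization 53.0% of the probe sets called were higher, against 41.6% as deposited, and the same member calls were made. Het arrays lay entirely above WT for 9 members and below for 3, against 28.4% and 21% of all probe sets.

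Scarna17 is a Cajal body RNA, and its levels were the steadiest of the members. They were 9.90 and 9.76 in WT, 10.21, 10.03 and 10.30 in Sle1.3, and 10.40, 10.36 and 10.58 in het. The genotypes did not overlap, in the order WT, Sle1.3, het. It rose in het against WT by 0.55 (SE 0.13, 1.47-fold, limma adjusted p = 0.0201). The steps from WT to Sle1.3 (0.29, SE 0.13) and from Sle1.3 to het (0.27, SE 0.11) did not pass. The call was lost without WT replicate 2, het replicate 1 or het replicate 2, with no array set term (adjusted p = 0.0600) and with labelled sex in its place (0.120). The other Cajal body members, Scarna13 of Snhg10 and Scarna8 of Haus6, differed from WT in het by 0.36 (SE 0.42) and 0.48 (SE 0.22).

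Rnu3a, a gene of U3 that belongs to box C/D by function and falls outside the rule by its symbol, was read beside the members. Its level was 8.39 and 9.45 in WT, 10.38, 10.11 and 10.63 in Sle1.3, and 9.78, 11.39 and 10.64 in het, with WT below all others. It rose in het against WT by 1.61 (SE 0.48, limma adjusted p = 0.0418), a direction opposite to the C/D member that fell there. Vaultrc5, a vault RNA, was 7.81 and 9.15 in WT, 6.74, 7.26 and 6.88 in Sle1.3, and 6.68, 10.21 and 8.77 in het. Rnu12, the U12 spliceosomal RNA, was 7.23 and 7.88 in WT, 6.68, 7.12 and 7.94 in Sle1.3, and 6.74, 9.60 and 8.15 in het. Both were highest in het replicate 2, as was the median of the H/ACA members. For Vaultrc5, WT replicate 2 lay above het replicate 3, unlike that median. Rn7sk stayed between 13.67 and 14.10 on all 8 arrays.

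The host genes were read in the same comparisons. Of 26 tested hosts, limma called 0 higher and 2 lower in Sle1.3 against WT (Srcap, -0.83, and Chd8, -0.65), none in het against Sle1.3, and 5 lower in het against WT (Srcap, Chd8, Eef2, Haus6 and Kansl2). Of all probe sets, 11.3% were called lower in the first of these and 15.6% in the last. Host medians were -0.10, -0.01 and -0.11 in the 3 comparisons. Srcap, a chromatin remodeller, hosts Snora30, whose difference in Sle1.3 was -0.75 (SE 0.29) without passing. Chd8, another remodeller, hosts Snord8, which differed by 0.15 (SE 0.30). Haus6 hosts Scarna8, whose value in het against WT had the opposite sign to its host's -0.65.

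Among the proteins that work with these RNAs, none of the 4 core proteins of C/D particles (Fbl, Nop56, Nop58, Snu13) or the 4 of H/ACA particles (Dkc1, Nop10, Nhp2, Gar1) passed in any comparison. Fbl, which is fibrillarin, came nearest, at -0.45 in Sle1.3 against WT (limma adjusted p = 0.0545). Of 15 assembly and transport factors, 2 fell in Sle1.3 against WT: Shq1, a dyskerin chaperone (-1.16), and Smn1, of the survival of motor neuron complex (-0.72). In het against WT 4 fell: Shq1 (-1.13), Nufip1 (-0.78), Smn1 (-0.72) and Ruvbl2 (-0.49). Of 18 genes of ribosome synthesis, 6 fell in each comparison with WT and none rose, with Polr1b, a subunit of RNA polymerase I, at -1.05 in Sle1.3 and -0.93 in het. The share of all probe sets called lower was 11.3% in Sle1.3 and 15.6% in het. None of these lists had a call between het and Sle1.3. Of the 12 listed non-coding hosts, 3 were on the table with a probe set of their own (Gas5, Snhg5, Snhg11), and none passed.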

How the data were processed

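Splenocyte RNA of 8 mice was measured on Affymetrix Mouse Gene ST arrays. The authors deposited linear intensity values for 35556 probe sets; RMA and Affymetrix Expression Console are named in the submitters' processing notes, while versions, roles and genome build are not given in the sources used here. RMA summarises probes after background correction and can compress low differences. The deposited intensity values were converted to log2 here. Members and lists were chosen with earlier results of these data known. Probe sets with a mean log2 above the 25th percentile (4.86) were tested, 26667 in all, with limma 3.58.1 in R 4.3.3 (lmFit, eBayes, two-sided): 8 arrays, genotype and array set, 4 residual degrees of freedom, Benjamini-Hochberg adjustment over all, threshold 0.05. Because WT lies in 1 set, comparisons with WT take the set term from the other genotypes. Labelled sex was not the term, since it contradicts Xist on 1 array. Named genes were the members past the threshold and those with the smallest p, up to 5 probe sets per comparison; other members described were chosen after their values were seen. Class medians carry no test. Same-numbered Sle1.3 and het arrays deviated together (r = 0.460, 0.385 and 0.566 over probe sets). The value was 0.0936 for Sle1.3 replicate 1 with het replicate 2 and 0.0604 for Sle1.3 replicate 2 with het replicate 1. No label states a pairing, and the arrays numbered 3 also share the second array set. The main fit did not use the replicate number, and calls with it as a block are given beside the main calls. For WT the same-number values were -0.0109 and 0.177 with Sle1.3 and 0.225 and 0.149 with het. Precision is limited by how many arrays there are. The code was tested on simulated data. Other settings of the term, scaling, filter and probe set choice, and leaving out each array, were also run.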

Additional observations from a re-analysis of the deposited data

How the results depend on the processing

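No named member changed sign in any of 19 other settings, but these are not 19 separate fits. The first set alone and the settings without Sle1.3 replicate 3 or het replicate 3 gave the same fit. Counting identical values once left the main value of each named member as it was. The tallies that follow therefore include repeats. Past the threshold were Snord37 in 18 (het against WT) and 14 (Sle1.3 against WT), Scarna17 in 14, Snord118 in 12 and Snord14e in 9. Snora44, not called otherwise, passed in 6 for Sle1.3 against WT, 3 for het against WT and 2 for het against Sle1.3. Against 4 lower members in Sle1.3 versus WT, 0 were lower with no array set term, 1 with labelled sex in its place, 0 with quantile normalization and 7 with 1 probe set per symbol. Leaving out 1 array gave 0 to 9 lower and 0 to 1 higher. Against 2 higher members in het versus WT, 0 were higher with no set term, 0 with labelled sex, 1 with identical values counted once (an alternative chosen after seeing the data), and 0 to 8 without 1 array. Against 1 lower there, 3 were lower with no filter, 3 with 1 probe set per symbol and 0 to 2 without 1 array. Between het and Sle1.3, 2 were higher with 1 probe set per symbol, and 0 to 2 without 1 array. With the replicate number as a block, 11 members were lower in Sle1.3 versus WT, 6 higher and 3 lower in het versus WT, and 0 were called between het and Sle1.3, where the block changed no call. Over all probe sets, 5361 were called in Sle1.3 versus WT, against 824 with labelled sex, 2212 with no set term, 3523 in the first set alone, 1581 without WT replicate 2 and 2202 without Sle1.3 replicate 1. In het versus WT 7140 were called, against 1601 with labelled sex, 2477 with no set term, 4621 with quantile normalization, 2028 without WT replicate 2, 4061 without het replicate 1 and 3840 without het replicate 2. Between het and Sle1.3 0 were called, against 141 in the first set alone, 93 with 1 probe set per symbol, 14 with a filter at the 50th percentile and 5 without het replicate 1. Medians over the members without 1 array ran from -0.45 to 0.05 (Sle1.3 versus WT), 0.05 to 0.68 (het versus Sle1.3) and -0.10 to 0.58 (het versus WT). The cause of these shifts was not tested.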
